A study of Mus musculus with 10 samples.

Results

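Conventional type 1 dendritic cells (cDC1s) sorted from the spleens of Nfil3 Zeb2 DKO mice (2 arrays) were compared with those of Zeb2 KO mice (3 arrays). Both genotypes lack Zeb2 by their labels, so the comparison asks what differs in cDC1s when Nfil3 is removed on top of Zeb2. The arrays were chosen by their sample titles and make up 5 of the 10 arrays of the series. The other 5 arrays, from WT mice (3) and Zeb2 Id2 DKO mice (2), entered the fit as a source of the spread, and WT values are given beside some results. The gate of the sort, the alleles and what drives their deletion, the age, sex and strain of the mice, and the number of mice behind an array are not given in the sources at hand. No label says that arrays of 1 genotype came from separate animals, so the spread that p-values rest on may be technical.

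cDC1s are the dendritic cells that take up dead cells and cross-present their antigens to CD8 T cells, and they are a main source of IL-12. They depend on the transcription factors IRF8 and BATF3 and carry the receptors XCR1 and CLEC9A. NFIL3 is a basic leucine zipper repressor that competes for DNA sites with the PAR bZIP activators of the circadian clock and with C/EBP factors. In dendritic cell progenitors NFIL3 represses Zeb2, ZEB2 represses Id2, and ID2 in turn blocks the E proteins, a chain that steers progenitors to the cDC1 fate.

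Total RNA was amplified and hybridised to Affymetrix Mouse Gene 1.0 ST arrays. Values below are log2 of the deposited RMA intensities, for 19938 genes with 1 probe set each, and a difference is Nfil3 Zeb2 DKO minus Zeb2 KO on that scale unless said otherwise, with its 95% confidence interval in brackets. The median intensity of an array was 76.3 to 82.9 among the Zeb2 KO arrays and 80.9 or 81.6 in the Nfil3 Zeb2 DKO arrays. Zeb2 KO replicate 3 stood apart from all other arrays: it correlated with the other 9 at 0.985 to 0.99, whereas pairs among those 9 correlated at 0.99 to 0.997. A gene's difference that leaving it out moved by over 1.5 times is therefore given with and without it. The sorted cells carried their label: 27 of 29 measured cDC1 identity genes lay above the median gene in every one of the 10 arrays, Itgb8 and Zbtb46 being the others. In Zeb2 KO, Xcr1 and Clec9a lay at percentiles 99.0 and 99.1 of all genes.

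Nfil3 was the one gene that passed the test. It measured 10.13, 10.12 and 10.41 in the Zeb2 KO arrays and 6.20 and 7.09 in the Nfil3 Zeb2 DKO arrays. The groups lay far apart, and the level fell by 3.58 [-4.17, -2.99], which is 11.9-fold (adjusted p = 0.00125). Without Zeb2 KO replicate 3 the difference was -3.48. In WT it measured 9.98, 10.77 and 10.68, and the difference between Nfil3 Zeb2 DKO and WT was -3.84 (adjusted p = 0.000622). The target of the second deletion thus checks the Nfil3 part of the labels. As Zeb2 KO and WT are both high in Nfil3, it cannot check the Zeb2 deletion of either group.

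Zeb2 did not give such a check. It measured 6.10, 6.27 and 5.40 in Zeb2 KO, 6.46 and 6.24 in Nfil3 Zeb2 DKO and 6.0, 5.93 and 6.30 in WT, and the groups overlapped. Its level was low in WT already, at percentile 41.7 of all genes, and where its probes lie relative to the deleted part was not looked up, as no source used names it. The difference between Nfil3 Zeb2 DKO and Zeb2 KO was 0.43 [-0.05, 0.91] with adjusted p = 0.638, and 0.17 without Zeb2 KO replicate 3.

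Id2, the gene downstream of ZEB2, measured 10.08, 9.89 and 10.29 in Zeb2 KO against 10.50 and 10.40 in Nfil3 Zeb2 DKO. Both Nfil3 Zeb2 DKO arrays lay above the 3 Zeb2 KO arrays, but the difference of 0.36 [0.09, 0.63] did not pass the test (adjusted p = 0.441). WT arrays lay between 10.15 and 10.43. Id2 thus stayed among the highest-expressed genes of these cells, at percentile 94.4 in Zeb2 KO.

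**Figure D1:**
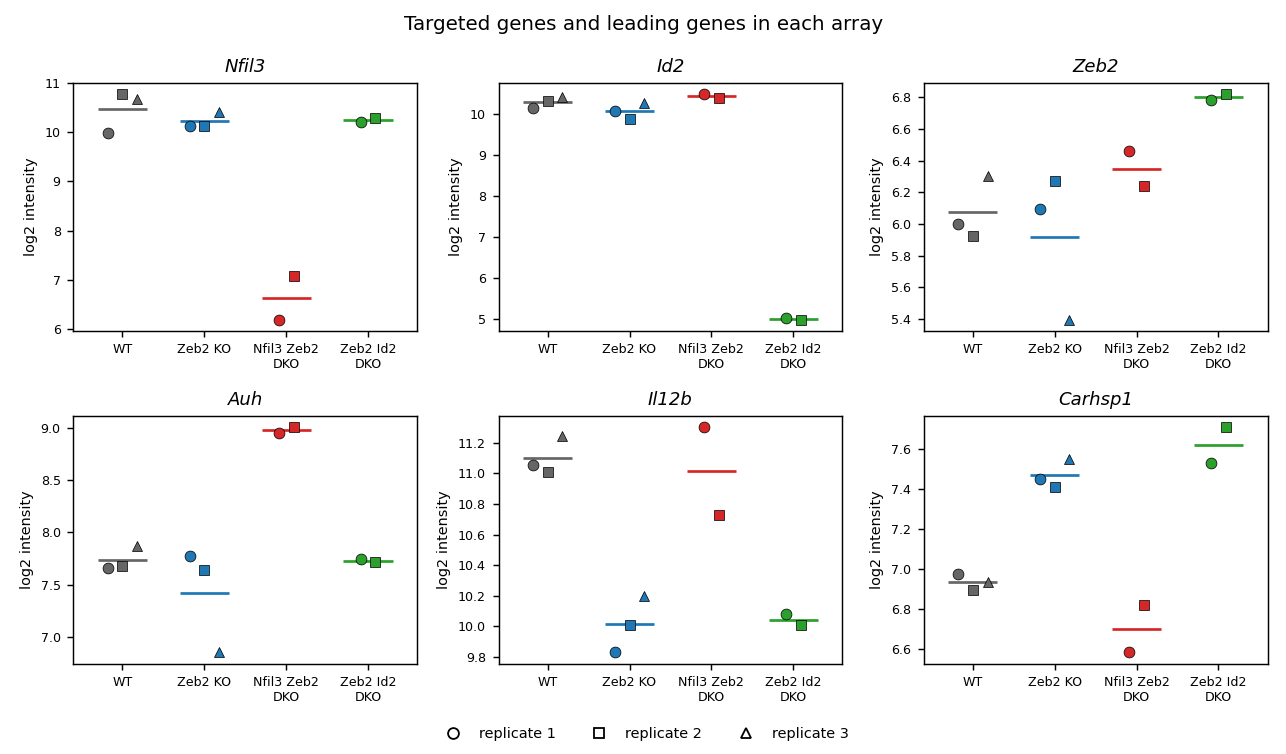
Log2 intensity of Nfil3, Id2, Zeb2, Auh, Il12b and Carhsp1 on each array, by genotype, with a line at the mean and a marker for each replicate number. Nfil3 drops from above 10 in Zeb2 KO to 6.20 and 7.09 in Nfil3 Zeb2 DKO, Auh and Il12b sit higher there and Carhsp1 lower, and Zeb2 overlaps between both groups.

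Across all genes, 1 of 19938 passed at an adjusted p under 0.05 (0.00502%), and it was lower. No gene passed as higher (0%). Without adjustment 1695 genes had a p under 0.05 (8.5%), against 997 that this threshold would give by itself, 807 of them higher (4.05%) and 888 lower (4.45%). The 2 and the 3 arrays did not overlap for 4403 genes (22.1%). With so few arrays a lack of overlap is common, and it does not by itself mark a gene as changed. At least 2-fold differences were seen for 43 genes (0.216%), 15 higher (0.0752%) and 28 lower (0.14%). The median difference was 0.02, and the median confidence interval reached 0.241 to either side.

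The count of 1 depended on Zeb2 KO replicate 3. Without that array 106 genes passed (0.532%), 50 higher (0.251%) and 56 lower (0.281%), the smallest of these differences being 1.34-fold. In 50 of the 106 genes replicate 3 also lay on the Zeb2 KO side, apart from both Nfil3 Zeb2 DKO arrays, while in 56 it lay at or past them. Leaving out Nfil3 Zeb2 DKO replicate 2 gave 8 genes and leaving out WT replicate 1 gave 4, and leaving out any other single array gave 1, Nfil3. Of the differences of 138 genes followed through every alternative, 61 moved by over 1.5 times when 1 array was left out. For 35 genes this array was Zeb2 KO replicate 3, for 26 Nfil3 Zeb2 DKO replicate 1, for 19 Zeb2 KO replicate 1, and for 13 each Zeb2 KO replicate 2 and Nfil3 Zeb2 DKO replicate 2, some genes being counted under several arrays. The medians of gene lists given below moved by as much for 23 of 24 lists, and several medians near 0 turned sign.

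**Figure D2:**
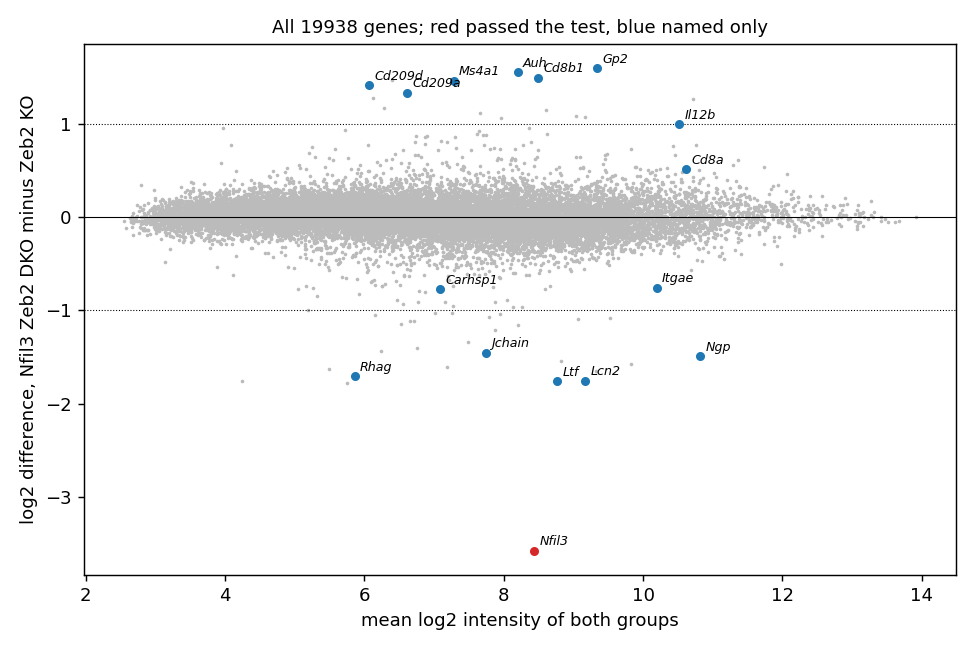
Difference between Nfil3 Zeb2 DKO and Zeb2 KO (log2) against the mean log2 intensity of both groups for all 19938 genes, with dotted lines at 2-fold. Nfil3, in red, is the gene that passed, and the blue genes are named in the text as values.

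Auh, the gene next to Nfil3 among those measured, had one of the largest higher values. Auh encodes an AU-rich RNA binding enoyl-CoA hydratase of leucine breakdown in mitochondria. It measured 7.78, 7.64 and 6.85 in Zeb2 KO against 8.95 and 9.01 in Nfil3 Zeb2 DKO, with 7.66, 7.68 and 7.87 in WT. The 2 Nfil3 Zeb2 DKO arrays were the highest of the 8 arrays of these 3 genotypes. The difference of 1.56 [1.08, 2.04], or 2.94-fold, did not pass with all arrays (adjusted p = 0.152). It passed without Zeb2 KO replicate 3, the array with the lowest Auh, at 1.27 (adjusted p = 0.00104), and with arrays weighted by their quality at 1.36 (adjusted p = 0.00141).

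Of the 10 measured genes on either side in the order of the reference table, the other 19 differed by -0.34 (Simc1) to 0.55 (Gadd45g, and 0.21 without Nfil3 Zeb2 DKO replicate 1), and none of the 20 passed. Probe set 10409276, which has no gene in the annotation and is numbered between the sets of Auh and Nfil3, measured 7.80, 7.86 and 9.42 in Zeb2 KO against 10.96 and 10.88 in Nfil3 Zeb2 DKO. Its difference of 2.56 was larger than that of Auh but did not pass when all probe sets were tested (adjusted p = 0.328), and its position was not used here. The nearest measured gene on the far side, Ror2, a receptor for WNT5A, differed by -0.01 [-0.26, 0.24], a sign that turned with the array weights and without replicate 3 (0.09). Syk, the kinase that signals from CLEC9A, differed by -0.16 [-0.38, 0.06]. Groups did not overlap for 9 of the 20 genes, against 22.1% of all genes, among them Cks2 (0.44, and 0.27 without Nfil3 Zeb2 DKO replicate 1), Sema4d (-0.28), Sfxn1 (-0.30) and Hrh2 (-0.28).

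**Figure D3:**
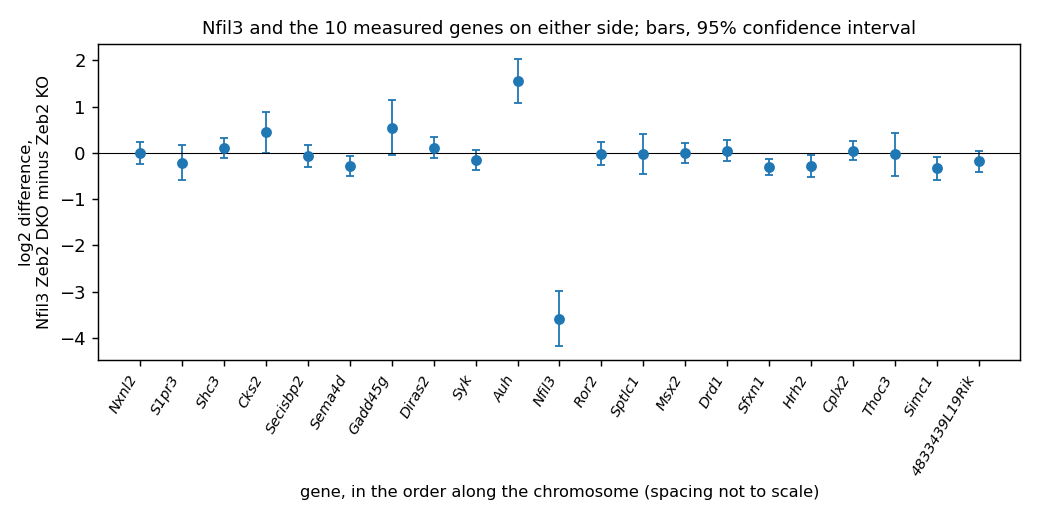
Difference between Nfil3 Zeb2 DKO and Zeb2 KO (log2, points) with 95% confidence intervals (bars) for Nfil3 and the 10 measured genes on either side, in chromosome order with even spacing. Auh at 1.56 lies above all other neighbours, which run from -0.34 to 0.55, and Nfil3 lies at -3.58.

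The 250 bases before the start of Nfil3, Auh and Il12b are shown because NFIL3 acts through its binding sites and these are the deleted gene, its neighbour and the leading cytokine gene (RefSeq, GRCm38.p6, 5′ to 3′ on the gene's strand). They lie at chr13:52981040-52981289 (minus strand), chr13:52929678-52929927 (minus strand) and chr11:44399813-44400062 (plus strand). Capitals mark the matches of the motifs searched.
Nfil3: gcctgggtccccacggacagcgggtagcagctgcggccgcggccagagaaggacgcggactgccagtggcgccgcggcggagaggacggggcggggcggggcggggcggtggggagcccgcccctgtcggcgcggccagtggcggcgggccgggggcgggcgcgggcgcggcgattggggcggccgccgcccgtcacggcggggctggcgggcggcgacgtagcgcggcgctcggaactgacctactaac
Auh: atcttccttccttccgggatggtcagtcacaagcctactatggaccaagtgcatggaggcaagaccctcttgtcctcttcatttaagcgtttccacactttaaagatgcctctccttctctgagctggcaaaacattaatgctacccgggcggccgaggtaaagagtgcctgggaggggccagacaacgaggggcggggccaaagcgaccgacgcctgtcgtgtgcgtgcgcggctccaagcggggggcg
Il12b: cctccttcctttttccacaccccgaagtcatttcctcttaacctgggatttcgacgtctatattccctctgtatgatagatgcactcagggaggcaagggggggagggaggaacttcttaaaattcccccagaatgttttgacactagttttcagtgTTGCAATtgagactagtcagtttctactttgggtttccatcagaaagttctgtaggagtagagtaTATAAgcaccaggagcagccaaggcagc

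The NFIL3 and PAR bZIP motif was searched on both strands as TTACGTAA, TTATGTAA, TGACGTAA and TGATGTAA. None of the 4 occurs in these windows, and any of them occurs in 2.32% of 32851 promoter windows of the same length. The ZEB motif CACCTG, also absent from the 3 windows, occurs in 17.2%. The Il12b window holds 1 C/EBP motif TTGCAAT, searched on both strands and found in 1.96% of windows, and 1 TATAA, searched on the gene's strand and found in 16%. These motifs do not overlap one another in the Il12b window.

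Il12b and further genes of dendritic cell maturation had higher values in Nfil3 Zeb2 DKO. Il12b, the shared chain of IL-12 and IL-23, measured 9.83, 10.01 and 10.20 in Zeb2 KO against 11.30 and 10.73 in Nfil3 Zeb2 DKO. The groups did not overlap, and WT at 11.05, 11.01 and 11.25 lay on the side of Nfil3 Zeb2 DKO. The difference of 1.0 [0.64, 1.36] did not pass with all arrays (adjusted p = 0.295), but it passed without Zeb2 KO replicate 3 at 1.09 (adjusted p = 0.0253) and without Nfil3 Zeb2 DKO replicate 2 at 1.29 (adjusted p = 0.0387).

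Of 29 measured maturation genes, 26 had a difference above 0, as did 55.1% of all genes, and none passed, with a median of 0.20 against 0.02 for all genes. That median was 0.28 without Zeb2 KO replicate 3 and 0.12 without Nfil3 Zeb2 DKO replicate 1. Of these, 6 passed as higher without Zeb2 KO replicate 3, where 0.251% of all genes did: Il12b, Ccr7, Ccl22, Ccl5, Pdcd1lg2 and Tnfrsf9. Of the 6, replicate 3 stayed below both Nfil3 Zeb2 DKO arrays for Il12b only. For Ccr7, Ccl22 and Pdcd1lg2 it lay between them, and for Ccl5 and Tnfrsf9 above both, so these calls rest on leaving it out. Ccl5 stood at 0.47 with all arrays and 0.78 without replicate 3, and Tnfrsf9, which encodes 4-1BB, at 0.35 and 0.63. Ccl22, a chemokine that draws regulatory T cells, measured 7.07, 7.20 and 8.46 in Zeb2 KO against 8.58 and 8.03 in Nfil3 Zeb2 DKO. Replicate 3 thus lay between the Nfil3 Zeb2 DKO arrays, and the difference was 0.73 with all arrays (adjusted p = 0.605) and 1.17 without it (adjusted p = 0.0231).

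Ccr7, the receptor that leads mature dendritic cells to T cell zones, showed the same layout, at 10.34, 10.73 and 11.26 in Zeb2 KO against 11.38 and 11.13 in Nfil3 Zeb2 DKO. Its difference was 0.48 with all arrays (adjusted p = 0.571) and 0.72 without replicate 3 (adjusted p = 0.0466). Over 21 chemokine and chemokine receptor genes, a list that also holds Ccr7, Ccl22 and Ccl5, the median was 0.08 with 13 above 0 and none passing with all arrays. Pdcd1lg2, which encodes the PD-1 ligand PD-L2, differed by 0.58 [0.11, 1.05] with all arrays by 0.82 without replicate 3 and by 0.31 without Nfil3 Zeb2 DKO replicate 1. Cd80, a costimulatory ligand, differed by 0.30 [0.08, 0.52] and Apol7c, an apolipoprotein L gene induced in mature cDC1s, by 0.78 [0.12, 1.44], and neither passed in either fit. The summed intensity of the 29 genes was 13800, 15300 and 18900 in Zeb2 KO against 21200 and 18500 in Nfil3 Zeb2 DKO, with 20900 to 21600 in WT, so that replicate 3 again overlapped with Nfil3 Zeb2 DKO.

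The cDC1 identity genes had levels close to those of Zeb2 KO. None of 29 passed in either fit, the median difference was 0.05 with all arrays and -0.04 without Zeb2 KO replicate 3, and groups did not overlap for 8 genes against 22.1% of all genes. Xcr1, the receptor for XCL1, differed by -0.05 [-0.31, 0.20], Clec9a, which senses actin of dead cells, by 0.14 [-0.06, 0.34], and Cadm1, an adhesion molecule, by 0.06 [-0.16, 0.29]. The master factor Irf8 differed by -0.21 [-0.38, -0.03] and its partner Batf3 by 0.06 [-0.22, 0.34]. Without Zeb2 KO replicate 3 the values were -0.17 for Xcr1, 0.07 for Clec9a, 0.14 for Cadm1 and 0.15 for Batf3.

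The chains of CD8 and CD103 had the widest values of this group. Itgae, which encodes the CD103 integrin chain, measured 10.73, 10.43 and 10.56 in Zeb2 KO against 9.76 and 9.86 in Nfil3 Zeb2 DKO. The groups did not overlap, but the difference of -0.76 [-1.19, -0.32] did not pass (adjusted p = 0.379). WT arrays of Itgae lay at 10.52, 10.11 and 9.97. Cd8a, the CD8 alpha chain, measured 10.41, 10.44 and 10.23 against 10.96 and 10.79, a difference of 0.52 [0.23, 0.80] with adjusted p = 0.374. WT arrays of Cd8a lay at 10.56, 10.86 and 10.89, above the Zeb2 KO arrays. Cd8b1, the CD8 beta chain of T cells, was outside the rule for named genes and was chosen after its values were seen. It measured 7.48, 7.13 and 8.61 in Zeb2 KO against 9.30 and 9.18 in Nfil3 Zeb2 DKO, above all 3 WT arrays (6.93, 7.82 and 7.72). Its difference was 1.5 with all arrays (adjusted p = 0.374) and 1.94 without Zeb2 KO replicate 3, where it passed (adjusted p = 0.0181).

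Other dendritic cell transcription factors had small differences. None of 33 passed in either fit, and 22 had a difference below 0, with a median of -0.07. Runx3 differed by -0.37 [-0.70, -0.04], Irf5 by -0.18 [-0.36, 0.00], Irf2 by -0.26 [-0.55, 0.02] and Etv3 by 0.27 [0.02, 0.52]. Leaving out Zeb2 KO replicate 3 left Runx3 at -0.18 and Irf2 at -0.15, and Etv3 was 0.17 without Nfil3 Zeb2 DKO replicate 1. Irf4, the factor of cDC2s, differed by -0.11 [-0.67, 0.46], and leaving out 1 array moved it between -0.34 and 0.11. Among 7 E protein and ID genes, the targets and relatives of ID2, Tcf3 differed by -0.24 [-0.50, 0.02], Tcf4 by 0.18 [-0.08, 0.44], Tcf12 by -0.04 [-0.21, 0.12] and Id3 by 0.31 [-0.05, 0.68]. Spib, a factor of plasmacytoid dendritic cells (pDCs), differed by 0.07 [-0.83, 0.96]. Zeb2 KO replicate 3 moved several of these: without it Tcf3 stood at -0.12, Tcf4 at 0.07 and Spib at 0.19. Id3 was 0.08 without Nfil3 Zeb2 DKO replicate 1.

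The list of clock genes and of PAR bZIP factors, the latter sharing binding sites with NFIL3, had no member that passed with all arrays. Among 17 PAR bZIP and clock genes the median difference was 0.02. Per2, a repressor arm of the clock, measured 7.89, 7.72 and 7.34 in Zeb2 KO against 7.19 and 7.26 in Nfil3 Zeb2 DKO. The groups did not overlap, and the difference was -0.42 [-0.74, -0.11] with adjusted p = 0.447. It passed without Zeb2 KO replicate 3, the lowest Zeb2 KO array for Per2, at -0.58 (adjusted p = 0.0422), the 1 clock gene to do so. WT arrays of Per2 lay at 7.16, 7.19 and 6.96, below the Zeb2 KO arrays. Dbp, the PAR bZIP activator most often set against NFIL3, differed by -0.23 [-0.50, 0.03], Cry2 by -0.29 [-0.60, 0.02] and Bhlhe40 by 0.40 [-0.21, 1.01]. Without Zeb2 KO replicate 3 Dbp stood at -0.12 and Cry2 at -0.44, and Bhlhe40 was 0.16 without Nfil3 Zeb2 DKO replicate 1.

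Among 23 C/EBP and related bZIP genes the median was -0.06 and none passed in either fit. Cebpa, a driver of granulocyte and monocyte fates, measured 8.48, 8.53 and 8.31 in Zeb2 KO against 8.18 and 8.06 in Nfil3 Zeb2 DKO, and its difference was -0.32 [-0.60, -0.04]. Ddit3, which encodes the stress factor CHOP, differed by -0.53 [-1.06, 0.00] (-0.28 without Nfil3 Zeb2 DKO replicate 1) and Cebpe, a factor of late granulocytes, by -0.28 [-0.59, 0.04]. Summed neutrophil marker intensities were 7890 to 17700 in Zeb2 KO against 3280 to 5210 in Nfil3 Zeb2 DKO, and their part in these differences was not tested.

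Carhsp1 had the smallest p after Nfil3. It encodes a calcium-regulated RNA binding protein that stabilises TNF mRNA. It measured 7.45, 7.41 and 7.55 in Zeb2 KO, 6.58 and 6.82 in Nfil3 Zeb2 DKO and 6.97, 6.89 and 6.93 in WT, with no overlap between the 3 genotypes. The difference of -0.77 [-0.99, -0.55] did not pass with all arrays (adjusted p = 0.0991). It passed without Zeb2 KO replicate 3 at -0.73 (adjusted p = 0.023) and with array weights at -0.73 (adjusted p = 0.038). A second probe set of Carhsp1 differed by -0.20, so its 2 probe sets disagree in size.

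Further genes with low p and no overlap between groups included transporters and enzymes. Slc7a8, a transporter of neutral amino acids, measured 9.0, 9.08 and 8.85 against 8.30 and 8.12, a difference of -0.77 [-1.04, -0.49]. Adgrl2, the adhesion receptor latrophilin 2, measured 6.81, 6.79 and 6.80 against 6.14 and 6.09, a difference of -0.69 [-0.94, -0.43]. Adgrl2 had nearly the same value on every Zeb2 KO array, whereas Slc7a8 varied more, and both genes passed without Zeb2 KO replicate 3, Slc7a8 with adjusted p = 0.0266 and Adgrl2 with adjusted p = 0.0442. Adgrl2 also passed without WT replicate 1 (-0.69, adjusted p = 0.0367), and it has 8 probe sets, whose differences ran from -0.69 to -0.10. Hadha, of mitochondrial fatty acid oxidation, differed by -0.56 [-0.77, -0.34] and passed without Zeb2 KO replicate 3 (-0.48, adjusted p = 0.0478). Zyx, a focal adhesion protein, differed by -0.46 [-0.64, -0.28], Mapkapk2, the kinase below p38, by -0.41 [-0.60, -0.22], and Pmepa1, a brake on TGF-beta signalling, by -0.44 [-0.64, -0.25], and these did not pass in either fit.

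On the higher side, Btbd19 differed by 0.82 [0.53, 1.12], Lsmem1 by 0.65 [0.38, 0.92] and Myb, a progenitor transcription factor, by 0.62 [0.34, 0.90]. Cd1d1, which presents lipids to NKT cells, measured 7.92, 8.04 and 7.58 in Zeb2 KO against 8.46 in both Nfil3 Zeb2 DKO arrays, a difference of 0.61 [0.35, 0.88]. WT arrays of Cd1d1 lay at 8.47, 8.53 and 8.47. All 4 genes missed the threshold with all arrays and passed without Zeb2 KO replicate 3, at 0.79 for Btbd19, 0.76 for Lsmem1, 0.71 for Myb and 0.48 for Cd1d1.

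Genes of cDC2s, the other conventional dendritic cell subset, leaned higher, with a median of 0.22 over 25 genes and none passing with all arrays. The median was 0.14 without Zeb2 KO replicate 3 and 0.08 without Nfil3 Zeb2 DKO replicate 1. Cd209a, a DC-SIGN lectin, measured 5.79, 6.13 and 5.90 in Zeb2 KO against 7.53 and 7.03 in Nfil3 Zeb2 DKO. Its difference of 1.34 [0.70, 1.98] missed the threshold (adjusted p = 0.374), passed without WT replicate 1 (1.34, adjusted p = 0.0367), and stood beside WT values of 6.61, 7.64 and 7.76. Cd209d, a related lectin gene named after its values were seen, measured 5.34, 5.42 and 5.30 against 7.05 and 6.49. Its difference of 1.42 likewise passed without WT replicate 1 and not with all arrays (adjusted p = 0.374). S100a4 differed by 0.93 [0.52, 1.33] and Cx3cr1, the fractalkine receptor, by 0.88 [0.41, 1.35], and Fcgr3, an activating Fc receptor, by -0.59 [-0.91, -0.26]. Fcgr3 passed as lower without Zeb2 KO replicate 3, at -0.71 (adjusted p = 0.0442).

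Over 17 Toll-like receptors and adaptors the median was 0.06, with 11 above 0 and none passing. Tlr1, which pairs with TLR2, measured 6.11, 6.41 and 6.45 in Zeb2 KO against 7.48 and 6.79 in Nfil3 Zeb2 DKO, a difference of 0.81 [0.43, 1.20] that passed without Nfil3 Zeb2 DKO replicate 2 (1.16, adjusted p = 0.0392) and not with all arrays (adjusted p = 0.374). Without Nfil3 Zeb2 DKO replicate 1 it was 0.47, so the size of the difference rested on which of the 2 arrays was kept. WT arrays of Tlr1 lay at 7.07, 7.16 and 7.18, above the Zeb2 KO arrays. Tlr6 and Tlr2 differed by 0.41 [0.20, 0.63] and 0.34 [0.12, 0.56], and the endosomal receptor Tlr8 by 0.26 [0.01, 0.51].

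Interferon-stimulated genes leaned the other way, with 23 of 26 below 0 and a median of -0.11, and none passed in either fit. Isg20, an exonuclease against RNA viruses, measured 8.22, 8.07 and 8.46 in Zeb2 KO against 7.34 and 7.89 in Nfil3 Zeb2 DKO, a difference of -0.64 [-1.02, -0.25]. Stat2 differed by -0.33 [-0.57, -0.08], Cmpk2 by -0.51 [-0.89, -0.13] and Rsad2, which encodes viperin, by -0.57 [-1.02, -0.12]. Without Nfil3 Zeb2 DKO replicate 1 Isg20 stood at -0.36, Cmpk2 at -0.31 and Rsad2 at -0.36. The median was -0.22 without Zeb2 KO replicate 3 and -0.06 without Zeb2 KO replicate 1.

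Antigen presentation genes lay close to 0. The median was -0.05 over 20 MHC class I genes and 0.03 over 14 MHC class II genes, with none passing in either fit. Tap1, a chain of the peptide pump, differed by -0.20 [-0.39, -0.01], Pdia3 by -0.17 [-0.34, 0.01] and Cd74, the invariant chain, by -0.09 [-0.27, 0.08] (-0.06 without Zeb2 KO replicate 3). Ctss, the protease that trims the invariant chain, differed by 0.43 [-0.14, 1.0] with all arrays and by 0.09 without Zeb2 KO replicate 3, which measured 10.15 against 11.11 and 11.24 in the other Zeb2 KO arrays.

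TGF-beta and SMAD genes had a median of 0.11 over 25 members, which was 0.04 without Zeb2 KO replicate 3, and none passed. The ligand Tgfb3 measured 6.47, 6.52 and 6.37 in Zeb2 KO against 5.64 and 5.90 in Nfil3 Zeb2 DKO, a difference of -0.68 [-1.06, -0.31]. The receptor Tgfbr1 differed by 0.41 [0.16, 0.65] (0.27 without Nfil3 Zeb2 DKO replicate 1), and Itgb8, an integrin chain that activates latent TGF-beta, by 0.30 [0.09, 0.50]. The median of 27 cell cycle genes was 0.08, and leaving out 1 array moved it between -0.05 (Zeb2 KO replicate 2) and 0.27 (Zeb2 KO replicate 3). Among them Rrm2 differed by -0.32 [-0.70, 0.06] (-0.18 without Zeb2 KO replicate 3) and Bub1 by 0.36 [-0.13, 0.85]. Immediate early and stress genes had a median of 0.05 over 23 members, with Egr2 at -0.45 [-0.82, -0.09] and Ier3 at 0.51 [-0.00, 1.02]. Both rested on Nfil3 Zeb2 DKO replicate 1: Egr2 was -0.12 and Ier3 0.10 without it, against -0.78 and 0.92 without Nfil3 Zeb2 DKO replicate 2.

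Among 23 glutathione and redox genes the median was -0.01 and none passed with all arrays. Gclm and Gsr, which make and recycle glutathione, differed by -0.39 [-0.71, -0.07] and -0.56 [-1.03, -0.09], and catalase (Cat) by 0.40 [0.09, 0.70]. Without Zeb2 KO replicate 3, the highest Zeb2 KO array for both, Gclm stood at -0.22 and Gsr at -0.31. Gclc, the catalytic partner of Gclm, was named after its values were seen and passed as higher without Zeb2 KO replicate 3. It measured 9.35, 9.86 and 10.95 in Zeb2 KO against 11.02 and 10.61 in Nfil3 Zeb2 DKO, so that replicate 3 lay between the Nfil3 Zeb2 DKO arrays, and its difference was 0.76 with that array and 1.21 without it.

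**Figure D4:**
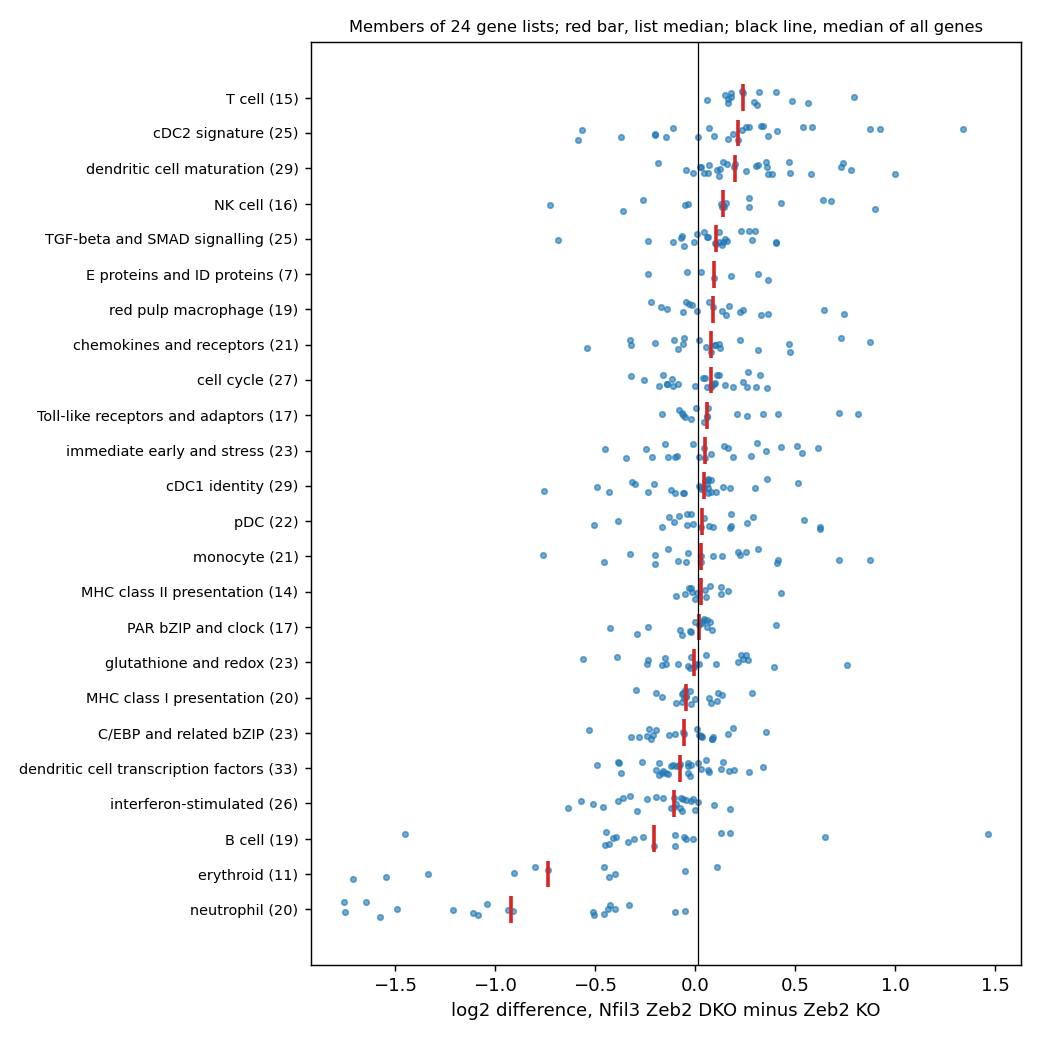
Difference between Nfil3 Zeb2 DKO and Zeb2 KO (log2) for every measured member of 24 gene lists, 1 point per gene, with a red bar at the list median, a black line at the median of all genes and the number of members in brackets. Neutrophil genes lie lowest, with a median of -0.92, erythroid genes next at -0.73, and T cell genes highest at 0.24.

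Marker genes of other blood cells had the widest shifts of the lists. All 20 measured neutrophil genes were below 0, with a median of -0.92, and none passed. Leaving out 1 array moved the median between -0.53 (Zeb2 KO replicate 1) and -1.11 (Nfil3 Zeb2 DKO replicate 2). Ngp, a granule protein, measured 12.18, 11.25 and 11.24 in Zeb2 KO, 9.73 and 10.41 in Nfil3 Zeb2 DKO and 8.57, 8.37 and 8.71 in WT. The 3 genotypes did not overlap, and the difference was -1.49 [-2.34, -0.64] with adjusted p = 0.374. Lactoferrin (Ltf) differed by -1.76 [-2.87, -0.65], Lcn2 by -1.75 [-2.93, -0.57] and Prtn3 by -0.91 [-1.47, -0.35]. The summed neutrophil intensity was 7890 to 17700 in Zeb2 KO against 3280 to 5210 in Nfil3 Zeb2 DKO, with WT at 1940 to 2370, and 8 of the 20 genes lay above the median gene on every array. Of the 28 genes at least 2-fold lower, 9 were on this list, 3 on the erythroid list and 4 were immunoglobulin segments. In sorted populations fewer neutrophils and less RNA per cell cannot be told apart, and the part of such cells in other differences was not tested.

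Erythroid genes had a median of -0.73 over 11 members, with 10 below 0 and none passing. The 2 Nfil3 Zeb2 DKO arrays differed from each other here: the summed intensity was 909 and 1700, against 2050 to 2600 in Zeb2 KO, with WT at 1430 to 2110. The median was -0.29 without Nfil3 Zeb2 DKO replicate 1 and -1.02 without replicate 2. Rhag, an ammonia channel of the red cell membrane, measured 6.82, 6.96 and 6.36 in Zeb2 KO against 4.14 and 5.86 in Nfil3 Zeb2 DKO, and its difference was -1.71 [-2.61, -0.81] with all arrays (adjusted p = 0.374). It passed without Nfil3 Zeb2 DKO replicate 2, at -2.57 (adjusted p = 0.0331), and was -0.85 without Nfil3 Zeb2 DKO replicate 1. Car2, a carbonic anhydrase, differed by -0.80 [-1.17, -0.44] and Epb42 by -0.91 [-1.40, -0.42].

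T cell genes were all above 0, 15 of 15, with a median of 0.24 (0.32 without Zeb2 KO replicate 3) and none passing. Cd3g measured 6.32, 6.57 and 6.54 in Zeb2 KO against 7.38 and 7.16 in Nfil3 Zeb2 DKO, a difference of 0.79 [0.45, 1.14], Cd3d differed by 0.56 [0.29, 0.83] and Cd3e by 0.49 [0.23, 0.74]. The summed intensity of the list was 1500 to 1670 in Zeb2 KO against 1900 to 2000 in Nfil3 Zeb2 DKO, and 3 of the 15 genes lay above the median gene on every array. Cd8b1, described above, is expressed in T cells too, and the part of T cells in its difference was not tested.

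NK cell genes had a median of 0.14 over 16 members, with sums of 1230 to 1820 in Zeb2 KO against 1540 to 1630 in Nfil3 Zeb2 DKO. Il2rb, the IL-2 receptor beta chain, differed by 0.90 [0.49, 1.31] and Ncr1, which encodes NKp46, by 0.64 [0.22, 1.06], and 2 members passed without Zeb2 KO replicate 3, where 0.532% of all genes did. Klrc2 passed as higher (0.54, adjusted p = 0.0344) and Klrk1, which encodes NKG2D, as lower (-0.89, adjusted p = 0.0344). Klrk1, named after its values were seen, measured 9.55, 9.52 and 7.95 in Zeb2 KO against 8.61 and 8.68 in Nfil3 Zeb2 DKO, so that replicate 3 lay past the Nfil3 Zeb2 DKO arrays, and its difference with that array was -0.36.

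B cell genes leaned lower, with 15 of 19 below 0, 4 above 0 and a median of -0.21. Ms4a1 and Fcrla, named below, are among the 4 above 0. Leaving out 1 array moved this median between -0.39 (Zeb2 KO replicate 3) and 0.09 (Zeb2 KO replicate 2). Ms4a1, which encodes CD20, measured 6.48, 7.14 and 6.02 in Zeb2 KO against 8.14 and 7.89 in Nfil3 Zeb2 DKO, whereas the plasma cell gene Jchain measured 10.09, 9.65 and 5.67 against 7.35 and 6.68. Their differences were 1.47 [0.39, 2.54] and -1.45 [-3.88, 0.97]. Jchain was -2.85 without Zeb2 KO replicate 3 and -0.64 without Zeb2 KO replicate 1. It passed in a fit of the 4 arrays of both groups without replicate 3, a fit added after the data were seen (adjusted p = 0.000929). In that fit 37 list members passed, Jchain, Ms4a1 and Fcrla among them. Fcrla, an Fc receptor-like gene, differed by 0.65 [0.20, 1.10] and passed without Zeb2 KO replicate 3, at 0.85 (adjusted p = 0.0475), and was 0.43 without Zeb2 KO replicate 2.

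The 22 pDC genes had no common direction, with 12 above 0, 10 below 0 and a median of 0.04. Those with the smallest p were higher: Siglech differed by 0.62 [0.22, 1.03], Cd300c by 0.63 [0.23, 1.03] and Lair1 by 0.54 [0.19, 0.90]. Monocyte genes had a median of 0.03 over 21 members, with Clec4e, the receptor Mincle, at -0.76 [-1.30, -0.22] and Spn, which encodes CD43, at 0.42 [0.23, 0.60]. Red pulp macrophage genes had a median of 0.09 over 19 members (0.21 without Zeb2 KO replicate 3), with 12 above 0 and 7 below 0. Vcam1 stood at 0.64 [0.19, 1.10] and Hpgd at 0.75 [0.19, 1.30]. None of these 3 lists had a member that passed with all arrays. Spic, the factor of red pulp macrophages, passed as higher without Zeb2 KO replicate 3 (0.84, against 0.33 with it), but replicate 3 at 7.35 lay past the Nfil3 Zeb2 DKO arrays at 6.68 and 6.64.

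Genes that passed without Zeb2 KO replicate 3 are named here after their values were seen. On the higher side the 7 largest differences were those of Gp2, Snord14e, Cd8b1, Tmem176a, Tmem176b, Asprv1 and H2-M2. Gp2, a receptor for bacterial pili, measured 7.37, 8.12 and 10.12 in Zeb2 KO against 10.04 and 10.23 in Nfil3 Zeb2 DKO. Its difference was 2.39 without replicate 3 (adjusted p = 0.0122) and 1.60 with it (adjusted p = 0.485). Tmem176b, a cation channel protein of dendritic cells, differed by 1.53 without it and 0.95 with it, and its neighbour Tmem176a by 1.60 and 1.06. The small nucleolar RNA Snord14e differed by 2.13 without it and 1.27 with it, and Asprv1, a skin aspartic protease, by 1.45 and 0.90, and replicate 3 lay between or past the Nfil3 Zeb2 DKO arrays for both. H2-M2, a nonclassical MHC gene, measured 6.76, 6.94 and 7.58 against 8.38 and 8.04, so that replicate 3 stayed below both Nfil3 Zeb2 DKO arrays, and it differed by 1.37 without that array.

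On the lower side, Il6 measured 6.65, 6.21 and 4.38 in Zeb2 KO against 4.71 and 5.09 in Nfil3 Zeb2 DKO, a difference of -1.53 without replicate 3 (adjusted p = 0.0253) and -0.85 with it (adjusted p = 0.698). Ear6, an eosinophil-associated ribonuclease, passed as lower without it (-1.59, and -1.15 with it), as did Hdc, which makes histamine (-1.23). Epx, which encodes eosinophil peroxidase, was -1.12 without it and -0.65 with it, and Prg3, a granule protein, -0.74 and -0.48. No list of such cells was counted, and these 4 genes stand as single values. Acod1, which makes itaconate, differed by -1.07 without replicate 3 and -0.79 with it, and Lmna, which encodes lamin A, by -0.98 and -0.74. Nlrp3, the inflammasome sensor, differed by -0.61 without replicate 3 and -0.46 with it. With all arrays but Nfil3 Zeb2 DKO replicate 1, Nlrp3 was -0.27. Replicate 3 stayed above both Nfil3 Zeb2 DKO arrays for Ear6, Hdc, Acod1 and Lmna, and lay between or past them for Il6, Epx, Prg3 and Nlrp3.

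**Figure D5:**
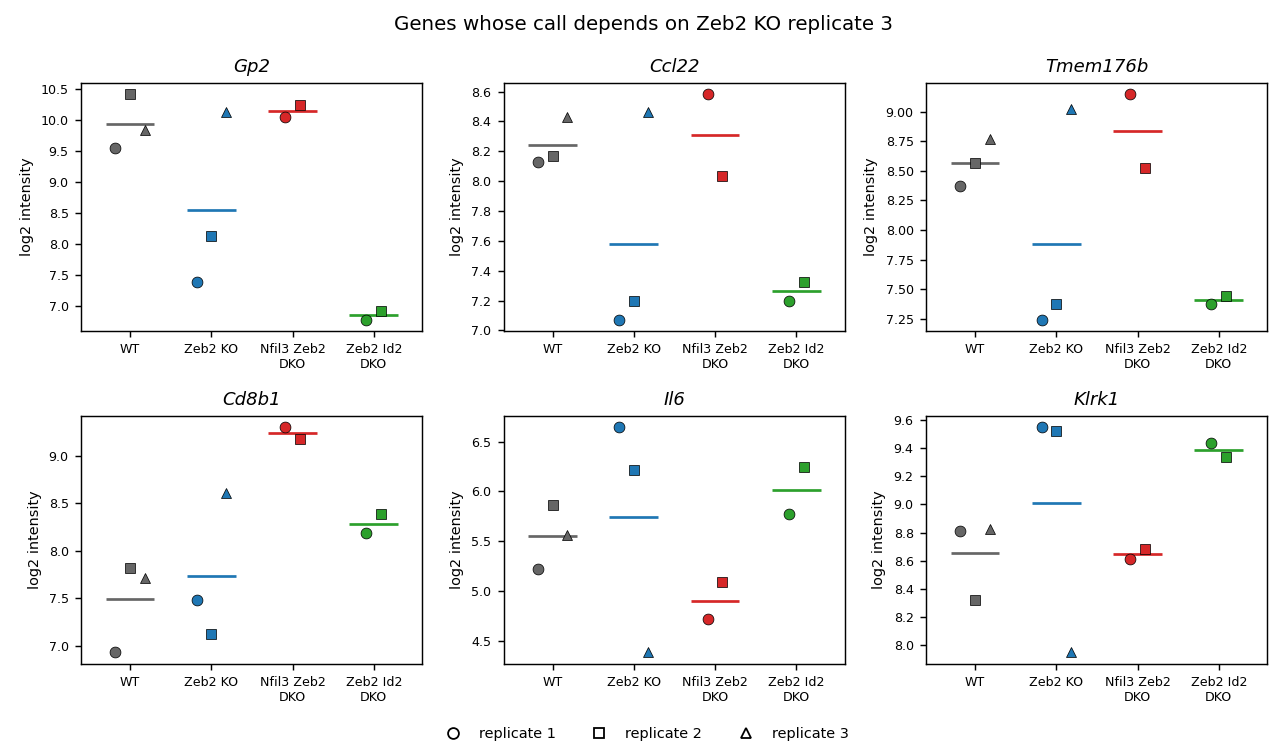
Log2 intensity of Gp2, Ccl22, Tmem176b, Cd8b1, Il6 and Klrk1 on each array, by genotype, with a line at the mean and a marker for each replicate number. The triangle of Zeb2 KO lies with or past the Nfil3 Zeb2 DKO arrays for Gp2, Ccl22, Tmem176b, Il6 and Klrk1, and at 8.61 below them for Cd8b1.

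Values against WT are set beside these differences and share arrays with them. Between Nfil3 Zeb2 DKO and WT 1 gene of 19938 passed (0.00502%), Nfil3, with 829 genes at an unadjusted p under 0.05 (4.16%). Between Zeb2 KO and WT 4 genes passed (0.0201%): Ngp as higher, and Rtn1, a reticulon, Zfyve9, an endosomal anchor of SMADs, and Cd80 as lower. Ngp stood at 8.55 ± 0.17 (SD, n = 3) in WT and 11.56 ± 0.54 (n = 3) in Zeb2 KO, and Nfil3 Zeb2 DKO stood at 10.07 ± 0.48 (n = 2). Rtn1 stood at 9.64 ± 0.15, 8.52 ± 0.25 and 9.06 ± 0.05, and Zfyve9 at 6.92 ± 0.16, 6.03 ± 0.06 and 6.44 ± 0.14 in the same order. Cd80 stood at 10.46 ± 0.12, 9.75 ± 0.11 and 10.06 ± 0.07. For all 4 genes the Nfil3 Zeb2 DKO mean lay between the other 2 means. The 4 genes were picked for their wide gap between Zeb2 KO and WT on these arrays, so a mean inside that gap is no separate result. None of the 4 passed between Nfil3 Zeb2 DKO and Zeb2 KO, the difference being 0.54 for Rtn1 and 0.40 for Zfyve9 (adjusted p = 0.374 and 0.379). Auh was 1.24 [0.76, 1.72] above WT in Nfil3 Zeb2 DKO, whereas the difference between Zeb2 KO and WT was -0.31.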

How the data were processed

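The authors used Affymetrix Expression Console and RMA, per the submitters' processing notes, and the deposited values are linear RMA intensities between 5.05 and 16019. RMA itself includes background correction and normalization between arrays, so no further scaling was applied, and differences of dim probe sets may be compressed. Of 28853 probe sets, 21789 named 1 gene in the platform annotation, 1621 several and 5443 none. Identifiers of 21698 matched the reference genes of GRCm38.p6, which gave the gene order and changed 0 symbols. For 999 genes with several probe sets the set with the highest mean over the arrays was kept, which left 19938 genes, with no filter on level.

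Log2 of the intensities was fitted with limma 3.58.1 in R 4.3.3, with a mean per genotype over all 10 arrays (6 residual and 4.47 prior degrees of freedom). P-values were adjusted by the Benjamini-Hochberg method over all genes, and a gene was called at an adjusted p under 0.05. The procedure was tested on simulated data in which a gene had the same spread on every array. That test therefore did not cover an outlying array such as Zeb2 KO replicate 3. The number of arrays limits the precision. No 2 arrays were identical.

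Named genes were Nfil3, Zeb2 and Id2, a panel of 13 genes, called genes or, as values, those with the smallest p whose arrays did not overlap (up to 15 per direction), up to 4 members of each of 24 lists, and the 10 measured genes on either side of Nfil3. The part chosen by p left out sex-linked and predicted genes, small RNAs, olfactory and vomeronasal receptors, and antigen receptor segments. The genes, lists and rules were chosen with earlier results of these data known. Alternatives were a fit on the 5 arrays alone, the mean of probe sets, a filter on dim genes (over 6 log2 in at least 2 arrays), other scalings, a variance trend, array weights, a replicate block, all probe sets and leaving out each array.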

Additional observations from a re-analysis of the deposited data

Results flagged for a closer look

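Probe sets that name more than 1 gene or none were outside the gene comparison. When all 28853 probe sets were tested with limma, 1 besides that of Nfil3 passed, probe set 10430179, which is annotated to more than 1 gene and is therefore not named. It measured 6.53, 6.44 and 6.56 in Zeb2 KO, 7.30 and 7.32 in Nfil3 Zeb2 DKO and 7.17, 7.29 and 7.22 in WT. The difference was 0.80 (adjusted p = 0.0156), larger than the spread within any of these groups. Against WT there was hardly a gap: the lower Nfil3 Zeb2 DKO array stood at 7.296 and the highest WT array at 7.29. Probe set 10425040, annotated to the same genes, differed by 0.82 from Zeb2 KO but did not pass (adjusted p = 0.0872). Its Nfil3 Zeb2 DKO arrays (7.39, 7.43) lay below WT replicate 2 (7.56) and above the other WT arrays (7.26, 7.30).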

How the results depend on the processing

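With all arrays, 1 gene passed (Nfil3, the 1 named gene that did), and no list member. These 3 counts were unchanged with the 5 arrays alone, the mean of probe sets, the dim filter, both other scalings, the variance trend and the replicate block, under which Nfil3 alone passed. Array weights gave 4 genes, 3 of them named, and all probe sets gave 2. Leaving out 1 array gave 1 to 106 genes, 1 to 19 named genes and 0 to 13 list members. An alternative added after the data were seen, the 4 arrays of both groups without Zeb2 KO replicate 3, gave 179 genes, 34 named genes and 37 list members. It is not counted where lists above are said to have no passing member. Itgae, Ngp, Cd3g and Tgfb3, of such lists, passed in it. The cause of these shifts was not tested.

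Of 2617 values of 138 genes over 19 alternatives, 2503 kept their direction and side of the threshold, 102 passed only under the alternative, 0 lost a call and 12 turned sign. Only Nfil3 had a call to lose. Spib was -0.0556 with the replicate block. Ror2 was 0.0276 with array weights, 0.0278 with the replicate block and 0.0924 in the added alternative. Leaving out 1 array moved Ror2 between -0.12 and 0.0924, Spib between -0.0982 and 0.189, Batf3 between -0.0435 and 0.15, Xcr1 between -0.171 and 0.0211, Cadm1 between -0.00674 and 0.145, and Irf4 between -0.338 and 0.105. The cause was not tested. Of 456 list medians 450 moved by less than the spread between arrays.

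No pairing by replicate number was seen: deviations of same-numbered Zeb2 KO and Nfil3 Zeb2 DKO arrays correlated at -0.064 and -0.0562, and 1 of 13 pairs over all groups exceeded 0.1. Differently numbered arrays reached 0.287 (WT replicate 1 with Zeb2 KO replicate 2). In a group of 2 arrays the deviations mirror each other, so this check cannot exclude a pairing. The replicate block kept the count at 1.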
